A study of Mus musculus with 9 samples.

Results

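The damage- and lipid-associated macrophage genes are 9 genes, taken by name from a list: Spp1, Gpnmb, Apoe, Lpl, Trem2, Cst7, Fabp5, Lgals3 and Cd9. Their symbols were matched to the Ensembl identifiers of the count data, and all 9 were found among the 53801 genes counted in each library. RNA was sequenced from monocytes/macrophages sorted by FACS as CD11c- Ly6G- CD11b+ CD45high cells. The 9 libraries fall into 3 groups of 3: sham blood, stroke blood and stroke brain. All mice were male C57BL/6J mice of 9 weeks. Stroke was made by occluding the distal middle cerebral artery (dMCAO) and the common carotid artery, both on the left and for good, and stroke blood and brain were collected 5 days later. Sham blood came from sham-operated mice on a day that the methods do not give, and no brain library came from a sham mouse. Each blood library came from 1 mouse, while each brain library pooled the cells of 5 mice. The gate in the brain can also take microglia that raise their CD45, so the brain libraries can hold both infiltrated monocyte-derived cells and resident cells.

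These genes are known from macrophages and microglia that take up dying cells, myelin and lipid. TREM2 is a surface receptor for lipids, lipoproteins and apoptotic cells that signals through the adaptor TYROBP and the kinase SYK. Apolipoprotein E, encoded by Apoe, carries cholesterol out of the cell and is a ligand of TREM2. Lipoprotein lipase (Lpl) releases fatty acids from triglycerides, and FABP5 carries fatty acids inside the cell. Osteopontin (Spp1) is a secreted ligand of integrins and CD44, GPNMB is a membrane glycoprotein of stressed lysosomes, and galectin-3 (Lgals3) is a lectin that binds damaged lysosomes and other glycans. Cystatin F (Cst7) inhibits cathepsins in the lysosome, and CD9 is a tetraspanin of the cell membrane.

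The stretches around the transcription starts are printed for the 4 genes whose promoter window held a searched motif, since Spp1 and Gpnmb, which differed most between brain and blood, are among them. RefSeq windows (GRCm38.p6, 250 bases before to 50 after a start) were matched for 7 of the 9 genes, and Fabp5 and Lpl were not matched. The motifs searched on both strands were TGANTCA, GAGGAAGT, a core of PU.1 sites, and CACGTG and TCATGTG, cores of E-boxes bound by the MiT/TFE family. TGANTCA is looser than the core of AP-1 and MAF family sites, TGACTCA or TGAGTCA, since it takes any base in the middle. Each line gives 150 bases before the start and 20 after it on the plus strand, with the motif in capitals.
Cst7, chr2:150570265-150570434: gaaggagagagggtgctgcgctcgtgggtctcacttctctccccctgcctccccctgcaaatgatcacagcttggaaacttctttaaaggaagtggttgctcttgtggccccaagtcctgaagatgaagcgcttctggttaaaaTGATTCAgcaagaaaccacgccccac
Gpnmb, chr6:49036368-49036537: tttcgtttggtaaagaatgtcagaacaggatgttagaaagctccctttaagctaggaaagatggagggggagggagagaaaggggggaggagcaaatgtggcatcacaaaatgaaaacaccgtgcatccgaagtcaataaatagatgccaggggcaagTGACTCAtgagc
Trem2, chr17:48346251-48346420: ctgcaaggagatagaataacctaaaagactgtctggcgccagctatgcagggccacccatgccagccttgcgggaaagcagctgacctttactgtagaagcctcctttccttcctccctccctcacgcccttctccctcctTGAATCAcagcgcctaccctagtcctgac
Spp1, chr5:104434961-104435130: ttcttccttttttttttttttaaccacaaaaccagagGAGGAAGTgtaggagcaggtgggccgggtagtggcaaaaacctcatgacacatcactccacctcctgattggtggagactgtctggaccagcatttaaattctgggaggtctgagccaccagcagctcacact
TGANTCA lay in the windows of Cst7, Gpnmb and Trem2 and in 7.81% of all 32851 windows. GAGGAAGT lay in that of Spp1 and in 3.20% of all windows, while CACGTG (7.15% of all windows) and TCATGTG (3.77%) were in none of the 7 genes' windows. Of the matches to TGANTCA, that of Gpnmb, TGACTCA, has the AP-1 core, while TGATTCA in Cst7 and TGAATCA in Trem2 do not. A match is a run of letters and no measurement of binding.

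Total counts were between 18475118 and 22623578 per library. Levels are counts scaled to a library total of 1000000 (CPM), and 3 counts, taken as the floor of detection, were 0.133 to 0.162 CPM. Differences are log2 fold changes from edgeR's quasi-likelihood test on TMM-scaled counts, each with its standard error (SE), and a gene was called where this value was beyond 1 in either direction with an adjusted p (Benjamini-Hochberg, over all genes tested) below 0.05. All 9 markers of monocytes and macrophages, such as Csf1r, Itgam and Ptprc, were above 3 counts in every library. Ly6g, the surface marker gated out, was at 0.252 to 0.323 CPM on average per group. Homeostatic microglia markers summed to 135 to 205 CPM in blood and to 1526, 2224 and 4249 CPM in brain replicates 1, 2 and 3, with all 9 called higher in the brain than in either blood group. The 5 border-associated macrophage markers tested were also called higher in the brain than in either blood group, and the 6 of the list summed to at most 25.4 CPM in a blood library and 57.3 to 211 CPM in the brain. Of 5 neutrophil markers tested, Mpo, Ltf, Ngp and Camp were called higher in the brain than in stroke blood, and Mpo, Ngp and Camp than in sham blood. Mmp8, which made up most of their sum in blood, was called lower in the brain in both comparisons. The part of these cells in the differences between brain and blood was not tested. In bulk RNA, fewer cells of a type and less RNA per cell cannot be told apart.

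In the brain 7 of the 9 genes were called higher than in stroke blood, against 13.1% of the 13189 genes tested, and none was called lower, against 7.86%. The 7 were Spp1, Gpnmb, Cst7, Apoe, Fabp5, Trem2 and Cd9, and in the same 7 the lowest brain library was above the highest stroke blood library, which held for 31.9% of genes tested. No gene of the 9 lay wholly below stroke blood, as 17.3% of genes did. The median log2 fold change was 1.62 over the 9 genes and 0.06 over all genes tested. Against sham blood 6 were called higher, Spp1, Gpnmb, Apoe, Cst7, Fabp5 and Trem2, against 9.75% of 13020 genes called higher, 3.67% called lower and 13.4% called in all. Brain and sham blood did not overlap for 7 of the 9, against 27.4% of genes with the brain higher and 14.2% with it lower. The median there was 1.70, beside 0.01 over all genes. These comparisons share the brain libraries, so they are not independent of each other. Between stroke and sham blood edgeR called 0 of the 9 genes and 0.00790% of 12664 genes. Apoe and Lpl were higher in every stroke blood library than in any sham library and Spp1 lower, against 8.23% and 10.5% of genes. DESeq2 called 1 of the 9, Lpl, beside 0.545% of the 23324 genes it tested.

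**Figure D1:**
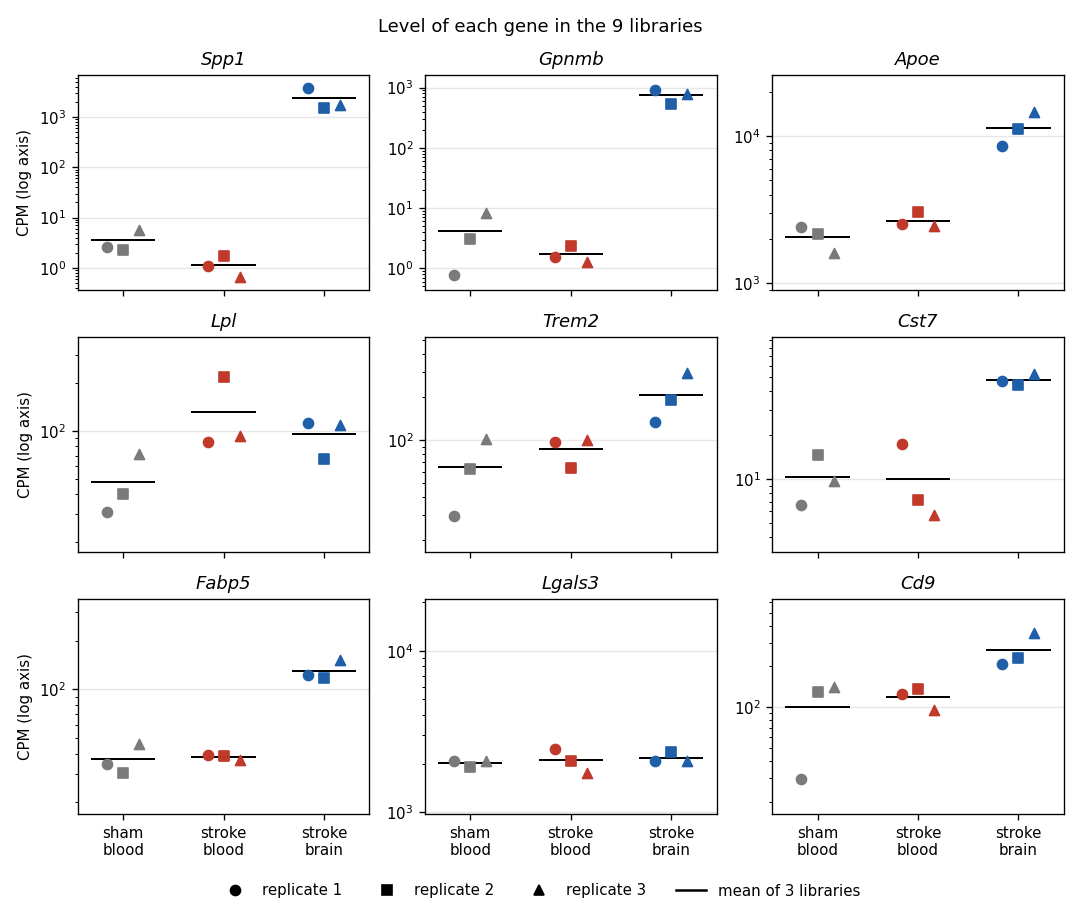
CPM (log axis, a different range in each panel) of the 9 genes in the 3 sham blood, 3 stroke blood and 3 stroke brain libraries, with a marker shape for each replicate number and a line at the group mean. Brain points lie above all blood points for Spp1, Gpnmb, Apoe, Cst7, Fabp5, Trem2 and Cd9, and not for Lpl and Lgals3.

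Together the 9 genes took 0.409% to 0.461% of the counts in sham blood, 0.452% to 0.556% in stroke blood and 1.61% to 2.01% in the brain. Per kilobase of exon, the scale on which genes can be compared, Lgals3 and Apoe led in blood, with 1128 ± 194 and 1245 ± 150 CPM per kb (SD, n = 3) in stroke blood. In the brain Apoe was at 5332 ± 1372 CPM per kb, Spp1 at 1445 ± 767 and Lgals3 at 1169 ± 88.2, the latter pair within 1 SD of each other. The Apoe level ranked between 3 and 6 among 21967 protein-coding genes in the brain libraries and between 27 and 53 in blood. Spp1 ranked between 14 and 38 in the brain and between 6034 and 9658 in blood. Cd9 and Gpnmb followed in the brain at 129 ± 37.6 and 114 ± 29.8 CPM per kb, whose ranges overlap in SD. Cst7, Trem2 and Fabp5 were at 48.9 ± 4.30, 41.4 ± 16.3 and 36.6 ± 5.25 CPM per kb, and Lpl was lowest at 9.21 ± 2.44.

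Of the 9 genes, Spp1 and Gpnmb, the secreted ligand and the lysosomal glycoprotein, separated brain from blood by the largest fold changes. Spp1 was at 2.58, 2.26 and 5.79 CPM in sham blood replicates 1, 2 and 3, at 1.11, 1.72 and 0.648 CPM in stroke blood and at 3835, 1540.0 and 1768 CPM in the brain. The lowest brain library was thus far above the highest blood library, and within blood every stroke library was below every sham library. The log2 fold change of Spp1 was 10.83 (SE 0.54, adjusted p = 4.85e-06) in brain over stroke blood and 9.27 (SE 0.61, adjusted p = 0.000239) over sham blood. In stroke over sham blood it was -1.57 (SE 0.53), and the adjusted p of 0.328 did not pass. Stroke blood held 12 to 37 Spp1 counts a library, so its level there rests on few reads. Spp1 shares 309 bases of exon with Gm42793 on the same strand.

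Gpnmb was at 0.778, 3.10 and 8.44 CPM in sham blood, at 1.54, 2.32 and 1.30 CPM in stroke blood and at 907, 527 and 791 CPM in the brain. All 3 brain libraries lay far above the 6 blood libraries, and the blood groups overlapped, with the widest spread in sham blood. Its log2 fold change was 8.59 (SE 0.33, adjusted p = 9.55e-07) over stroke blood and 7.38 (SE 0.80, adjusted p = 0.00139) over sham blood. Both genes were called in 6 of 6 fits that left out 1 library, in each brain comparison.

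**Figure D2:**
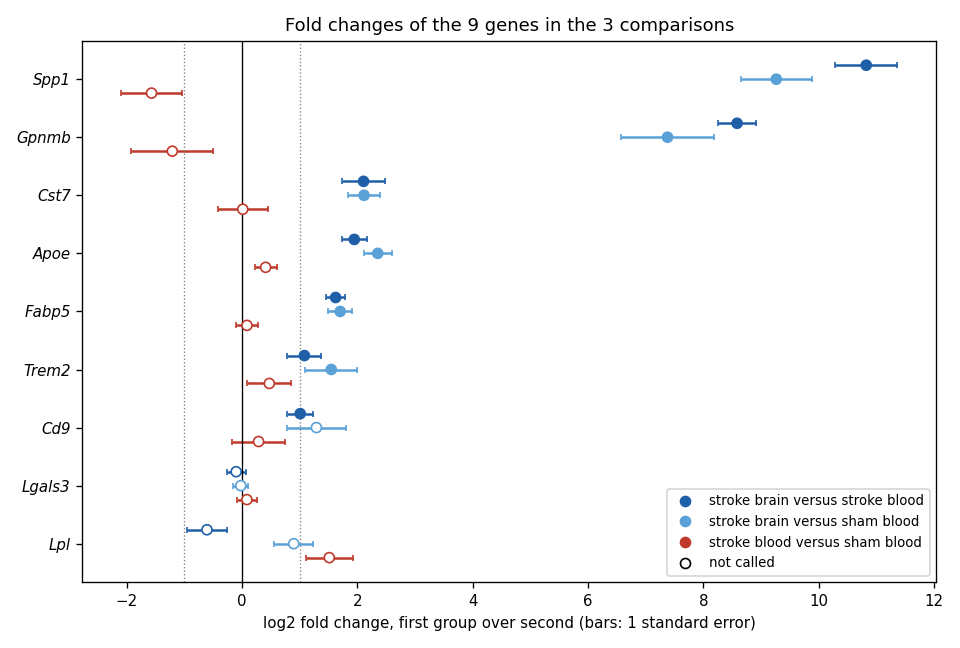
Log2 fold changes of the 9 genes (points) with 1 standard error (bars) for the 3 comparisons, filled where called and open where not, with dotted lines at the threshold of 1. Spp1 at 10.83 and Gpnmb at 8.59 stand apart in brain over stroke blood, Cst7, Apoe, Fabp5, Trem2 and Cd9 lie between 1.01 and 2.11, and Lgals3 and Lpl lie at -0.10 and -0.61.

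Apoe and Trem2 are a ligand and its receptor, and both were higher in the brain. Apoe was at 2401, 2147 and 1616 CPM in sham blood, at 2526, 3029.8 and 2432 CPM in stroke blood and at 8618, 11119.6 and 14463 CPM in the brain. The groups did not overlap in any comparison, and stroke blood was above sham blood by a small margin. The difference was 4.28-fold in mean CPM over stroke blood (log2 fold change 1.95, SE 0.22, adjusted p = 0.000288) and 5.55-fold over sham blood (log2 fold change 2.35, SE 0.25, adjusted p = 0.00125). In stroke over sham blood the log2 fold change was 0.41 (SE 0.19, adjusted p = 0.424), not called. Astrocytes also make Apoe, and 6 astrocyte markers summed to 0.195 to 1.73 CPM in blood. In brain replicates 1, 2 and 3 the sum was 8.26, 13.6 and 23.0 CPM, in the rank order of Apoe. The rise in the sum was mostly that of Slc1a3, at 2.40, 6.45 and 17.5 CPM in these libraries. Slc1a3 and Aldh1l1 had this order, while Gja1 and Slc1a2 were lowest in brain replicate 3, where Apoe was highest. Of the 4 tested, Slc1a3, Gja1 and Slc1a2 were called higher in the brain than in either blood group, and Slc1a3 had no count in blood and 45 to 378 counts a brain library. Aqp4 was at 0 to 3 counts and Gfap at 1 to 24 counts a brain library. The part of astrocyte RNA in the Apoe difference was not tested.

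Trem2 was at 29.7, 62.7 and 101 CPM in sham blood, at 97.4, 63.6 and 99.7 CPM in stroke blood and at 133, 189.8 and 292 CPM in the brain. Brain replicate 3 stood highest and brain replicate 1 lay nearest to blood, while the blood groups overlapped. The log2 fold change was 1.08 (SE 0.29, adjusted p = 0.0217) over stroke blood and 1.55 (SE 0.45, adjusted p = 0.0487) over sham blood. The call over stroke blood was kept in 2 of 6 fits with a library left out: it was lost without stroke blood replicate 1, 2 or 3 (log2 fold change 1.12, 0.84 and 1.18) and without brain replicate 3 (0.74). The call over sham blood was also kept in 2 of 6 fits, and was lost without sham blood replicate 1 or 2 and without brain replicate 2 or 3. In these fits the log2 fold change over sham blood stayed between 1.19 and 2.04. Across the brain libraries Trem2, Apoe and Cd9 had the rank order of the summed microglia markers. The sums of border-associated macrophage, natural killer cell, platelet, erythroid and astrocyte markers had the same order, so it is not particular to microglia. Those of dendritic cell, oligodendrocyte and choroid plexus markers had other orders. The part of any of these cells in the differences of Trem2, Apoe and Cd9 was not tested.

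Of the lipid enzymes and carriers, Fabp5 was higher in the brain and Lpl was not called. Fabp5 was at 34.5, 30.4 and 45.7 CPM in sham blood, at 39.0, 38.7 and 36.8 CPM in stroke blood and at 122, 118 and 152 CPM in the brain. The 6 blood libraries overlapped, and all brain libraries were above them. Brain differed by a log2 fold change of 1.62 (SE 0.17, adjusted p = 0.000184) over stroke blood and 1.70 (SE 0.21, adjusted p = 0.00225) over sham blood, and both calls were kept in 6 of 6 fits with a library left out. Its processed copy Fabp5l2 had at most 2 counts in any library.

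Lpl was at 31.0, 40.3 and 71.2 CPM in sham blood, at 85.1, 219 and 93.7 CPM in stroke blood and at 113, 67.1 and 109 CPM in the brain. Stroke blood replicate 2 was the highest of the 9 libraries, all stroke blood libraries were above all sham libraries, and the brain overlapped with both blood groups. Lpl was thus the 1 gene of the 9 with its highest mean in stroke blood. The log2 fold change of stroke over sham blood was 1.51 (SE 0.41), with an adjusted p of 0.285 by edgeR. DESeq2 (adjusted p = 0.00545) and edgeR without the filter on low counts (adjusted p = 0.00213, with 0.686% of all genes called) called it, and over the 14 alternatives run the adjusted p was between 0.00213 and 0.707. Without stroke blood replicate 2 the log2 fold change was 0.94. In brain over stroke blood it was -0.61 (SE 0.35, adjusted p = 0.219) and in brain over sham blood 0.90 (SE 0.33, adjusted p = 0.0987), called in 1 of 6 fits, without sham blood replicate 3 (1.31, adjusted p = 0.0331).

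Lgals3 was high in all 3 groups, and no comparison called it. It was at 2078, 1910.3 and 2089 CPM in sham blood, at 2474, 2062 and 1754 CPM in stroke blood and at 2069.9, 2360.4 and 2084 CPM in the brain. The 3 groups overlapped, and the range over all 9 libraries was set by stroke blood. Its log2 fold change was -0.10 (SE 0.17, adjusted p = 0.674) over stroke blood and -0.02 (SE 0.13, adjusted p = 0.924) over sham blood, and with scaling by library size alone it was 0.05 and 0.10. That scaling moves the median of all genes tested from 0.06 to 0.22 in brain over stroke blood and from 0.01 to 0.13 over sham blood. Lgals3 made up 37.1% to 51.1% of the counts of the 9 genes in blood and 10.4% to 14.6% in the brain.

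Cst7, the cathepsin inhibitor, was at 6.62, 14.5 and 9.63 CPM in sham blood, at 17.4, 7.14 and 5.67 CPM in stroke blood and at 47.4, 44.4 and 52.8 CPM in the brain. The brain libraries were tightly grouped and the blood groups overlapped. The log2 fold change was 2.11 (SE 0.38, adjusted p = 0.00323) over stroke blood and 2.12 (SE 0.28, adjusted p = 0.00329) over sham blood, and 0.01 (SE 0.44, adjusted p = 0.993) in stroke over sham blood. Cystatin F is also made by natural killer cells. The 7 natural killer cell genes Ncr1, Gzma, Prf1, Klrd1, Klre1, Fasl and Cd7, chosen after values were seen, summed to 190, 531 and 287 CPM in sham blood, 731, 292 and 228 CPM in stroke blood and 584, 1138 and 1222 CPM in the brain. In the 6 blood libraries the 2 highest Cst7 levels were in the 2 libraries with the highest sums, and no gene of the 7 was at 0 in any library. Cd7, Klrd1 and Fasl were the 3 genes most like Cst7 across these libraries, so their higher level in the brain follows from that choice. Their part in the match of the sums to Cst7 also follows from it. Of the other 4, none was called over stroke blood and 1, Prf1, was called higher over sham blood. Nkg7 and Klrb1c, markers of these cells outside the list, were not called over stroke blood, and Nkg7 was called higher over sham blood. Brain replicate 1, with a lower sum than stroke blood replicate 1, had 47.4 CPM of Cst7 beside 17.4 CPM there. The part of these cells in the Cst7 difference was not tested.

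Cd9, the tetraspanin, was at 29.3, 130.0 and 141 CPM in sham blood, at 125, 136 and 94.7 CPM in stroke blood and at 209, 232 and 352 CPM in the brain. All brain libraries were above all blood libraries, and sham blood replicate 1 stood far below the rest. Brain was higher by 1.01 in log2 fold change (SE 0.22, adjusted p = 0.00898) than stroke blood, just past the threshold of 1. It was below 1 without stroke blood replicate 3 (0.86) and without brain replicate 3 (0.75), with the replicate number as a block (0.98, adjusted p = 0.0183), with RLE scaling (0.98), with a mean of at least 50 counts (0.99) and with all 9 libraries in a single fit (0.98). Over sham blood it was 1.29 (SE 0.52, adjusted p = 0.120), not called by edgeR, while DESeq2 (adjusted p = 0.0268, with 9.59% of all genes called) and the replicate block (1.53, adjusted p = 0.0480) called it. Without sham blood replicate 1 it was 0.85 (adjusted p = 0.0601), and the value of stroke over sham blood went from 0.29 to -0.15. Cd9 shares 218 bases of exon with Gm26728 on the opposite strand.

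Platelets also carry CD9. The 5 platelet markers summed to 15.2, 384 and 579 CPM in sham blood, 278, 332 and 295 CPM in stroke blood and 38.3, 61.7 and 83.9 CPM in the brain. Sham blood replicate 1 was lowest in both, and its erythroid markers summed to 924 CPM beside 24689 and 27592 CPM in the other sham libraries. This library was also the lowest of the sham libraries for Gpnmb, Lpl, Trem2 and Cst7. It was the highest of them for Apoe and in the middle for Spp1, Fabp5 and Lgals3. No platelet marker was at 0 in blood. In the brain 4 of 5 were called lower than in stroke blood and 4 of 5 than in sham blood, against 7.86% and 3.67% of all genes. The part of platelets in the blood level of Cd9 was not tested.

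**Figure D3:**
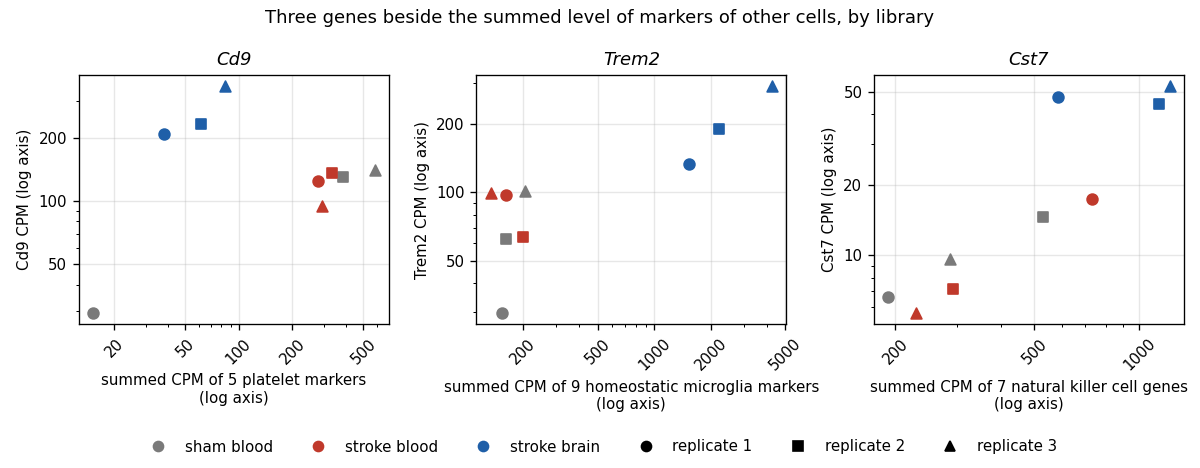
CPM of Cd9, Trem2 and Cst7 against the summed CPM of 5 platelet, 9 homeostatic microglia and 7 natural killer cell markers in each of the 9 libraries (log axes, group by color, replicate by shape). The natural killer cell genes were chosen after values were seen, with Cd7, Klrd1 and Fasl, the genes most like Cst7, among them. Sham blood replicate 1 is lowest on both axes for Cd9 (29.3 and 15.2 CPM), and brain replicate 3 is highest on both for Trem2 (292 and 4249 CPM) and Cst7 (52.8 and 1222 CPM).

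The 9 genes did not order the brain pools in 1 way. Apoe, Trem2, Cd9, Cst7 and Fabp5 were highest in brain replicate 3, Spp1, Gpnmb and Lpl in replicate 1 and Lgals3 in replicate 2. Spp1 was 2.17-fold higher in replicate 1 than in replicate 3, while Trem2 was 2.19-fold, Cd9 1.68-fold and Apoe 1.68-fold higher in replicate 3 than in replicate 1. Spp1 alone made up 23.9% of the counts of the 9 genes in replicate 1, beside 9.51% and 8.81% in replicates 2 and 3. Cst7 and Lgals3 had the narrowest ranges, 1.19-fold and 1.14-fold from lowest to highest.

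Markers of other cells also differed between the pools. All 9 microglia markers were highest in replicate 3, by 2.24 to 3.84-fold over replicate 1. Border-associated macrophage markers summed to 57.3, 123 and 211 CPM in replicates 1, 2 and 3, with 6 of 6 highest in replicate 3. Dendritic cell markers were highest in replicate 1 for 6 of 6, and summed to 835, 658 and 644 CPM. The 3 choroid plexus markers had no count in blood, were each highest in replicate 1, and summed to 101, 17.2 and 44.3 CPM. Replicate 1 was highest and replicate 2 lowest in that sum, as in Spp1, Gpnmb and Lpl. The sum was mostly Ttr, while the other choroid plexus markers, Kl and Folr1, were lowest in replicate 3. With 3 pools there is no test of these orders, and their part in the levels of the 9 genes was not tested.

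**Figure D4:**
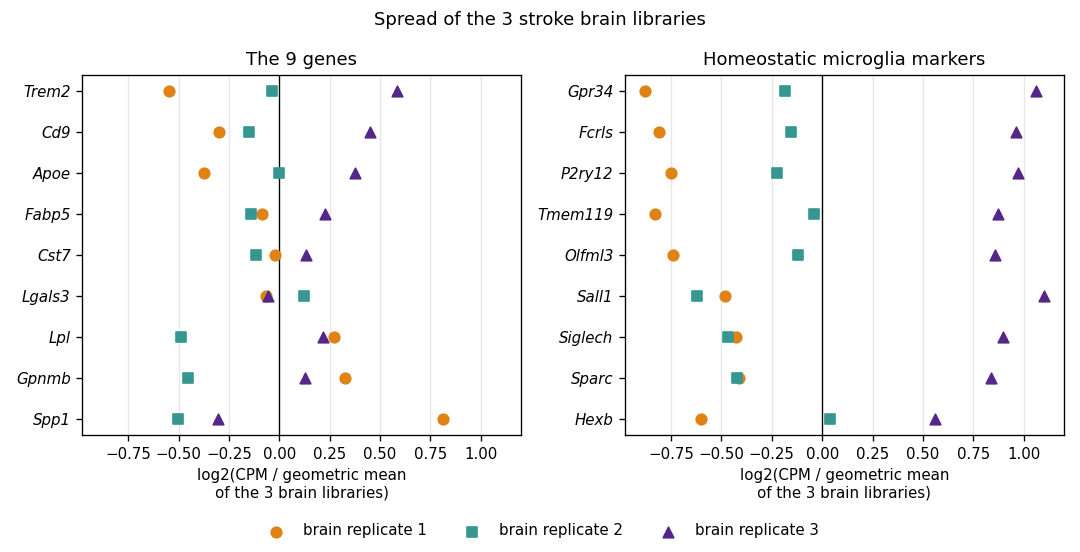
Log2 of the CPM in each stroke brain library over the geometric mean of the 3 libraries, for the 9 genes (left) and 9 homeostatic microglia markers (right). Replicate 3 is rightmost for all microglia markers and for Trem2, Cd9, Apoe, Fabp5 and Cst7, and replicate 1 is rightmost for Spp1, Gpnmb and Lpl.

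Around TREM2, of 12 genes of its signaling chain, itself included, 3 were called higher in the brain than in stroke blood (Lat2, Grb2 and Trem2) and 1 lower (Hcst), against 21.0% of all genes called, and the median log2 fold change was 0.68. With scaling by library size alone the split was 4 higher and 0 lower, and without stroke blood replicate 3 it was 1 higher and 1 lower. The adaptors Lat2 and Grb2 were higher by 1.11 (SE 0.20, adjusted p = 0.00326) and 1.10 (SE 0.19, adjusted p = 0.00288) in log2 fold change. The exons of Lat2 overlap those of Rfc2 on the opposite strand. Tyrobp, the adaptor of TREM2 itself, was at 3963 ± 198 CPM in stroke blood and 2617 ± 291 CPM in the brain (SD, n = 3), and its log2 fold change of -0.75 (SE 0.16, adjusted p = 0.00631) was short of the threshold of 1. Hcst, which encodes the adaptor DAP10, had a log2 fold change of -1.06 (SE 0.18, adjusted p = 0.00224). Syk was at -0.18 (SE 0.23, adjusted p = 0.601). Over sham blood 1 of the 12, Trem2, was called, against 13.4% of all genes. That count was 0 without sham blood replicate 1 or 2 or brain replicate 2 or 3, and 2 without sham blood replicate 3, without brain replicate 1 and with library size only, while none of the 12 was called between the blood groups.

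Of 23 receptors, partners and inhibitors of the products of the 9 genes, 20 were tested, and 6 were called higher in the brain than in stroke blood and 2 lower, against 13.1% and 7.86% of all genes, with a median log2 fold change of 0.52. With scaling by library size alone the split was 7 and 1. Among the osteopontin receptors, Itgb5, an integrin chain, was at 30.3 ± 5.64 CPM in stroke blood and 789 ± 242 CPM in the brain (log2 fold change 4.55, SE 0.29, adjusted p = 2.00e-05). Itga9, which encodes another integrin chain, had 0 to 7 counts a library in stroke blood, a mean below the floor of 3 counts, and 12.8 ± 5.02 CPM in the brain (adjusted p = 0.000370), so no fold is given. Integrin chain Itga4, whose exons overlap Cerkl on the opposite strand, fell by 1.12 (SE 0.17, adjusted p = 0.00157) on the log2 scale. Itgb3, which platelets also carry and which was lower together with the platelet markers, fell by 1.88 (SE 0.26, adjusted p = 0.000944). The part of platelets in the Itgb3 difference was not tested. CD44 had its gene at 851 ± 26.4 CPM in stroke blood and 728 ± 115 CPM in the brain, which was not called (log2 fold change -0.38, SE 0.16, adjusted p = 0.0956). Sdc4, a heparan sulfate proteoglycan, and Cd81, a tetraspanin, were higher by 5.29 (SE 0.38) and 3.72 (SE 0.34). Over sham blood 8 of the 20 were called higher and 0 lower, against 9.75% and 3.67% of all genes.

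Of 20 lipid handling genes 18 were tested, and 9 were called higher in the brain than in stroke blood and 0 lower, against 13.1% and 7.86% of all genes, with a median log2 fold change of 0.85. Abca1, which exports cholesterol to apolipoproteins, was at 7.64 ± 2.90 CPM in stroke blood and 72.5 ± 25.1 CPM in the brain (log2 fold change 3.09, SE 0.36, adjusted p = 0.000341). Nr1h3, the liver X receptor alpha, and Pparg, nuclear receptors that control such genes, were higher by 1.59 (SE 0.30, adjusted p = 0.00390) and 1.36 (SE 0.24, adjusted p = 0.00295). The study had already reported Abca1, Cd36, Nr1h3 and Pparg as higher in this comparison, so these calls repeat its result. Of genes in the other lists here, it also reported αVβ5 integrin (Itgb5), Axl and Csf1 as higher. It named IGF1 (Igf1) among its differentially expressed genes. Plin2, which coats lipid droplets, was at 229 ± 16.8 CPM in stroke blood and 1101 ± 52.2 CPM in the brain (log2 fold change 2.11, SE 0.14, adjusted p = 2.30e-05). Ch25h, the cholesterol 25-hydroxylase, had no count in stroke blood and 4.53 ± 0.720 CPM in the brain, at least 30.5-fold higher against a floor of 3 counts a library. Fabp3, a carrier like Fabp5, was at 0.685 ± 0.402 and 3.29 ± 1.42 CPM (log2 fold change 2.10, SE 0.62, adjusted p = 0.0309), called in 3 of 6 fits with a library left out. Over sham blood 8 of 18 were called higher and 0 lower, against 9.75% and 3.67% of all genes, and 6 were called without sham blood replicate 3.

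Of 20 other genes named with disease-associated microglia and foamy macrophages, 12 were called higher in the brain than in stroke blood and 1 lower, against 13.1% and 7.86% of all genes, with a median log2 fold change of 1.38. Cd63, a tetraspanin of late endosomes, was at 5.05 ± 6.16 CPM in stroke blood and 283 ± 88.5 CPM in the brain (log2 fold change 5.65, SE 0.79, adjusted p = 0.000900). Igf1, a growth factor, had a log2 fold change of 5.25 (SE 0.47), Ctsd, a lysosomal protease, 3.06 (SE 0.26), and Timp2, a metalloprotease inhibitor, 3.00 (SE 0.27). Itgax, which encodes the CD11c that the sort gated out, was at 14.0 ± 4.73 CPM in stroke blood and 102 ± 34.0 CPM in the brain (log2 fold change 2.71, SE 0.30, adjusted p = 0.000284). The 6 dendritic cell markers, Itgax among them, summed to 94.5 to 222 CPM in stroke blood and 644 to 835 CPM in the brain. Lyz2, a lysozyme of monocytes and macrophages, fell by 1.33 (SE 0.17, adjusted p = 0.000523). Mitf, a MiT/TFE factor, was at 0.29 (SE 0.40, adjusted p = 0.618). Over sham blood 9 of the 20 were called higher and 1 lower, against 9.75% and 3.67% of all genes, and in none of the 4 lists was a gene called between the blood groups by edgeR. The microglia and border-associated macrophage markers were higher in the brain together with these lists, and their part in them was not tested. Exons of Cd81, Ch25h, Fabp3, Nr1h3 and Ctsd also overlap those of another gene, which makes their counts less certain.

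**Figure D5:**
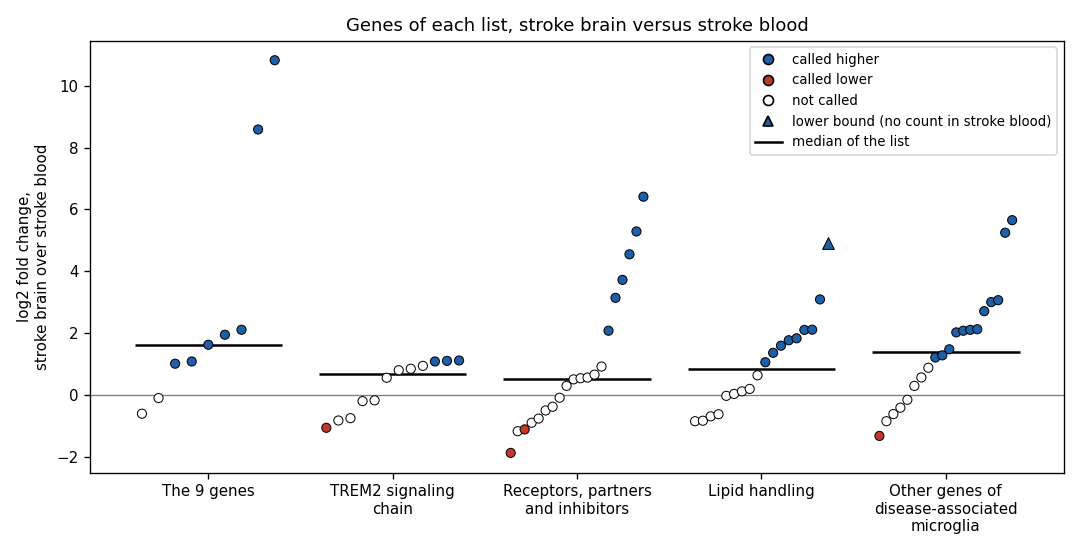
Log2 fold changes of stroke brain over stroke blood for the tested genes of 5 lists (points, blue called higher, red called lower, white not called, a triangle for the lower bound of Ch25h), with a line at each list's median. The medians are 1.62 for the 9 genes, 0.68 for the TREM2 signaling chain, 0.52 for receptors, partners and inhibitors, 0.85 for lipid handling and 1.38 for the other genes of disease-associated microglia and foamy macrophages.

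The genes most like each of the 9 in their pattern were found by Pearson's r of log2 CPM over the 9 libraries, among 7930 genes with a mean log2 CPM above 3. For Spp1 they were Gpr137b and Sgk1 (r = 0.99 for both), with Gpnmb at the third place. For Gpnmb they were Il21r and Snx8 (0.99 for both), and for Apoe Adap2 (0.99) and Ckb (0.98). For Trem2 they were Alkbh6 and C4b (0.97 for both), and for Fabp5 the macrophage genes Ms4a7 and C1qb (0.98 for both). For Cst7 they were Cd7 (0.98) and Klrd1 (0.97), which natural killer cells express, and for Cd9 Adgrg1 and Itga6. For Lpl they were Mtss1 and Sqle (0.92 for both), and for Lgals3 Ndufa9 (0.96) and Parl (0.91). The points share the 3 groups and the depth of each library, and no test was run on these values.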

How the data were processed

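RNA from sorted cells was made into cDNA with the SMART-Seq HT kit and sequenced. Per the labels and the methods, HISAT2 was used by the authors to map reads to GRCm38, and HTSeq to count them on genes. What they deposited are raw counts that were not normalized. Tool versions, annotation release and strand setting are not given in the sources used here, so overlapping genes are uncertain. Symbols, exon lengths and overlaps came from GENCODE M21, in which 53706 of the 53801 identifiers were found.

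The quasi-likelihood test of edgeR 4.0.16 (R 4.3.3; TMM, filterByExpr) was run on the counts of the pair of groups in each comparison. Benjamini-Hochberg adjustment was over all genes tested. An SE is the log2 fold change over the square root of F. DESeq2 1.42.0, which the authors used, was an alternative, beside RLE, library size only, no filter, a mean of at least 50 counts, all 9 libraries, the replicate block, an adjusted p below 0.01 and each library left out. The edgeR and DESeq2 fits were tested on simulated data. Similar genes used a prior count of 2.

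Groups and replicate numbers came from the labels, which name no batch. Replicates differed by more than sampling noise. With 3 against 3 libraries the smallest two-sided p of an exact permutation test is 0.1. Depth was 18475118 to 22623578 counts, and reads had no molecular identifiers, so the floor covers counting error only. The 9 genes, the lists and the markers were chosen with earlier results of these data known. Named from the 4 lists are the called genes of largest change, up to 4 a list and direction, and Tyrobp, Syk, Abca1, Nr1h3, Pparg, Cd44, Itgb5, Itgax and Mitf. The 7 natural killer cell genes were added after values were seen.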

Additional observations from a re-analysis of the deposited data

How the results depend on the processing

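Of 377 alternative values for the log2 fold changes of the 9 genes, 342 kept their direction and side of the threshold, 17 lost a call, 5 gained a call and 13 changed sign. Calls of Spp1, Gpnmb, Apoe, Cst7 and Fabp5 in the brain were among those kept in every fit that left out a library. The number of the 9 genes called ranged from 5 to 7 with a library left out in both brain comparisons. Of 210 alternative counts of called genes, 198 stayed within 1.5 times.

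The TREM2 signaling chain had 1 gene called in brain over sham blood, 0 at an adjusted p below 0.01, 2 with library size only and 0 to 2 with a library left out, and over stroke blood 2 to 4 with a library left out. In stroke over sham blood 1 of the 9 genes was called by DESeq2 and 1 with no filter, and 1 partner gene was called lower by DESeq2. Changes of sign were all in values not called. With library size only, Lgals3 was at 0.0515 in brain over stroke blood and 0.10 over sham blood, and Cst7 at -0.0250 in stroke over sham blood. With no filter Cst7 was at -0.0142. With a library left out, Lgals3 in brain over sham blood ranged from -0.0957 to 0.0205 (0.00540 without sham blood replicate 1), and in stroke over sham blood Cst7 ranged from -0.65 to 0.33, Fabp5 from -0.0512 to 0.27, Lgals3 from -0.0616 to 0.17 and Cd9 from -0.15 to 0.62. The causes were not tested.

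The labels do not tie same-numbered libraries to the same animal, and the correlations of their deviations were between -0.07 and 0.07, so they were not treated as pairs. With the replicate block 6 of the 9 genes were called over stroke blood, 7 over sham blood and 0 between blood groups, and Cst7 was at -0.11 in stroke over sham blood. Levels per kilobase on the longest transcript kept Apoe, Spp1 and Lgals3 as the 3 highest in the brain. Depth limits the low blood levels of Spp1 and Gpnmb, with 12 to 156 counts a library.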
